A study of Mus musculus with 24 samples.

Results

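The comparison described here is control (WT) splenic B cells after 16 h with anti-IgM against control splenic B cells at 0 h, across all genes. It holds every array labelled WT and 16 h and every array labelled WT and 0 h, which is 6 of the 24 arrays of the series, 3 biological replicates in each group. The cells came from the spleens of C57BL/6 mice aged 6 to 8 weeks, and B cells were enriched with magnetic beads after the culture. Total RNA of each sample was hybridised to 1 Affymetrix array. The other 18 arrays are WT cells at 3 and 8 h and NFATc1-deficient cells (labelled K0, here KO) at all 4 times. KO cells carry an Nfatc1 gene whose exon 3 is flanked by loxP sites and is removed by Cre recombinase under the control of Cd79a (mb-1), a promoter of the B lineage. The WT genotype is given in the sample titles alone, and the labels do not say whether the control mice carry Cre or the floxed allele. Anti-IgM is an antibody that crosslinks the IgM form of the B cell receptor. No sample was kept for 16 h without it, so the effect of the antibody and that of the hours in culture cannot be told apart. In these bulk samples fewer cells of a type and less RNA per cell cannot be told apart either. The mean signal of each array, without its highest and lowest signals, was 500. A difference is thus relative to the other transcripts on the array, and the amount of RNA per cell was not measured.

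A resting B cell is small, makes little protein and recirculates between blood and lymphoid organs. Crosslinking of its receptor activates kinases such as SYK and BTK, releases calcium, and switches on transcription factors of the NFAT, NF-kB, AP-1 and EGR families. In the hours that follow the cell grows, builds ribosomes and mitochondria, and then copies its DNA, while help from T cells usually decides whether it survives.

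Values are log2 of MAS5 signals, so a difference of 1 is 2-fold, and a difference without further comment is WT 16 h minus WT 0 h. A filter level, under which a signal counts as dim, was the 40th percentile of each array and lay between 5.64 and 6.01 on these 6 arrays. Where the mean of the dimmer group lay under it, a fold or difference carries the words at least and was computed with dim signals raised to that level, and any adjusted p beside it belongs to the deposited values. A gene was called at an adjusted p under 0.05 (limma with Benjamini-Hochberg adjustment over 14318 genes). Standard errors (SE) are limma's, and the number of arrays limits the precision. Pairs of replicate arrays correlated at 0.937 to 0.944, and pairs of 1 array from each group at 0.867 to 0.883. The arrays of WT replicate 2 have male-type expression at every time (Eif2s3y 11.32 at 0 h and 11.50 at 16 h), and those of replicates 1 and 3 do not, so each group holds 1 such array. Calls between WT 16 h and WT 0 h were recomputed under 16 alternatives. Among them were fits without each of the 6 arrays in turn and without the 4 WT arrays of male-type expression. Genes named here that lost this call in any alternative are given with the highest adjusted p reached in limma.

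Between 0 h and 16 h 5635 of 14318 genes were called (39.4%), 2992 of them higher at 16 h (20.9%) and 2643 lower (18.5%). At least 2-fold differences were found for 1368 higher genes (9.55%) and 1383 lower genes (9.66%). The median difference over all genes was 0.0458. With so many genes called, each list count below is to be read against these shares. The 15 largest increases and the 15 largest decreases are described first, and the gene lists after them.

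Ahr, Cyp1a1 and Nqo1 stood among the 15 largest increases. Ahr, the aryl hydrocarbon receptor, which binds aromatic compounds and acts as a transcription factor, had values of 8.82, 9.30 and 9.33 at 0 h and 12.38, 12.34 and 12.55 at 16 h. The difference was 3.27 (9.66-fold, SE 0.20, adjusted p = 1.09e-11). Cyp1a1, a monooxygenase that is the classic target of this receptor, had 5.61, 5.66 and 5.55 at 0 h and 11.02, 11.51 and 9.74 at 16 h, at least 30.9-fold higher (adjusted p = 6.48e-06). Nqo1, a quinone reductase, had 3.17, 5.71 and 2.81 at 0 h and 9.58, 9.96 and 9.28 at 16 h, at least 13.9-fold higher (adjusted p = 4.13e-09). All 0 h values of Cyp1a1 and Nqo1 lay at or under the filter level.

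Several receptors and enzymes went from dim signals to clear ones. Tacc2, a centrosomal coiled-coil protein, had the largest increase of all, from 1.85, 3.81 and 1.58 to 10.53, 11.23 and 10.79, at least 33.0-fold. Bcat1, which transaminates branched-chain amino acids in the cytosol, went from 2.79, 4.57 and 4.28 to 10.62, 10.72 and 10.61, at least 28.7-fold. The 16 h arrays differed by little for these genes, whereas the 0 h values scatter in the range where signals are dim. Pdcd1 (PD-1), an inhibitory receptor, had 4.63, 5.65 and 4.78 at 0 h and 9.96, 10.60 and 10.33 at 16 h, at least 22.4-fold. Axl, a receptor tyrosine kinase that binds GAS6, was at least 19.7-fold higher. Il2ra, the alpha chain of the interleukin 2 receptor, had 4.95, 6.34 and 5.62 against 10.18, 9.90 and 10.41, at least 18.8-fold. Nr4a3, an orphan nuclear receptor of the early response, had 6.38, 6.16 and 7.25 against 11.46, 11.49 and 11.58 (30.2-fold, SE 0.44 on the log2 scale). The remaining genes of this group of 15 were Ifitm2 (10.3-fold), Nme1 (9.63-fold), Tent5c (9.60-fold) and 3 that were dim at 0 h. These were Mir155hg (at least 18.5-fold) and the unnamed loci 2900026A02Rik (at least 13.2-fold) and A430093F15Rik (at least 10.4-fold). Nme1 was read by a probe set of the x type, which can also bind related transcripts such as Nme2.

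Mir155hg is the host transcript of miR-155, a microRNA needed for normal B cell responses. It had values of 5.66, 4.62 and 6.81 at 0 h and 10.26, 9.46 and 11.42 at 16 h, at least 18.5-fold higher (adjusted p = 1.89e-06), and replicate 3 was highest at both times. The array reads the host transcript and not the mature microRNA, whose level was not measured. Its sequence is shown from RefSeq (GRCm38.p6, chr16:84714143-84714165, plus strand) because it is the product of this transcript, with the seed, bases 2 to 8, in capitals.
mmu-miR-155-5p: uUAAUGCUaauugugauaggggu

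**Figure D1:**
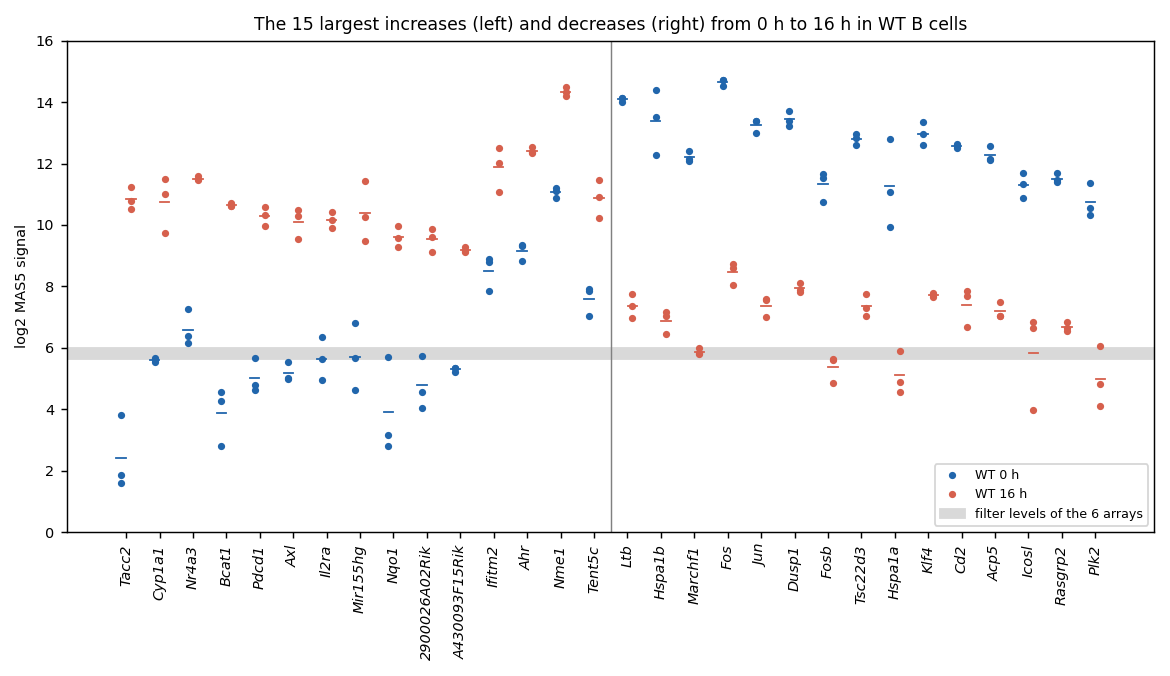
Log2 MAS5 signal on each of the 6 WT arrays (points; blue 0 h, red 16 h) and group mean (short bars) for the 15 largest increases and 15 largest decreases among called genes with groups that do not overlap; the grey band spans the filter levels of the 6 arrays. Most of the genes on the left start at or under the band, and most of the genes on the right start above 10.

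The lowest genes were high at 0 h. Ltb, lymphotoxin beta, a membrane cytokine that organises lymphoid tissue, had 14.002, 14.15 and 14.15 at 0 h and 7.76, 6.98 and 7.36 at 16 h, 106-fold lower (SE 0.18 on the log2 scale, adjusted p = 9.13e-18). The difference of its partner Lta was -3.49 or larger in size (adjusted p = 1.62e-06). The ubiquitin ligase Marchf1, which takes MHC class II and CD86 off the cell surface, had 12.10, 12.15 and 12.40 against 5.78, 5.99 and 5.84, 81.2-fold lower. Cd2, an adhesion receptor, was 35.8-fold lower, Rasgrp2, which activates the small GTPase RAP1, 28.6-fold lower, and Acp5, an acid phosphatase, 33.8-fold lower. Icosl, the ligand of the T cell costimulator ICOS, had 11.33, 11.68 and 10.88 against 6.65, 3.96 and 6.83, at least 28.7-fold lower. Plk2, a kinase of the polo family, was at least 27.0-fold lower.

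Some transcripts of the AP-1 and heat shock responses, which many cells raise when they are handled or stressed, were bright at 0 h and fell. Whether handling raised them here was not tested. Fos had 14.71, 14.73 and 14.52 at 0 h and 8.04, 8.60 and 8.73 at 16 h, 73.4-fold lower (SE 0.41 on the log2 scale, adjusted p = 2.33e-11). Jun had 13.37, 13.39 and 13.01 against 7.54, 7.59 and 6.99 (59.0-fold lower), and Dusp1, a phosphatase of MAP kinases, 13.39, 13.73 and 13.22 against 7.83, 7.88 and 8.10 (45.7-fold lower). Hspa1b, an inducible HSP70, had 12.28, 14.39 and 13.50 against 7.05, 6.44 and 7.17 (90.8-fold lower), and the neighbouring Hspa1a was at least 42.9-fold lower. Hspa1a had 9.94, 12.79 and 11.06 at 0 h, so that both HSP70 genes spread widely there, with replicate 2 highest. Fosb was at least 44.6-fold lower, the zinc finger factor Klf4 38.2-fold and Tsc22d3, a leucine zipper protein that glucocorticoids induce, 44.0-fold.

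The immediate early genes did not move as a block. Of 27 listed and tested, 7 rose, 12 fell and 8 were not called, with a median of -0.311, against 20.9% and 18.5% of all genes. Beside Fos, Fosb and Jun, the phosphatases Dusp6 (-3.15) and Dusp5 (-2.43), Atf3 (-2.40) and Junb (-2.005) fell. The EGR factors differed among themselves. Egr2 had 10.18, 10.10 and 9.59 at 0 h and 12.92, 13.01 and 13.08 at 16 h (3.05, SE 0.35, adjusted p = 1.2e-07), and Egr3 rose by 1.30. Their corepressor Nab2 (1.57) and the phosphatase Dusp4 (1.85) rose as well. Egr1 (0.21, adjusted p = 0.552) and Nr4a1 (0.42, adjusted p = 0.516) were not called. Egr1 overlapped between the groups, whereas each 16 h value of Nr4a1 lay above its 0 h values. Both were bright at each time.

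Genes of the receptor's own pathway were mostly lower. Of 22 tested members of B cell receptor signalling (26 listed), 15 fell (68.2%), 2 rose and 5 were not called, with a median of -0.954. Syk, the kinase that docks on the phosphorylated receptor, had 13.31, 13.28 and 13.02 at 0 h and 10.20, 10.08 and 9.92 at 16 h (8.79-fold lower, SE 0.15 on the log2 scale, adjusted p = 3.32e-13). The adaptor Bank1 was 8.89-fold lower, the signalling chain Cd79b 3.42-fold lower and the kinase Btk 1.88-fold lower. The adaptor Blnk (-0.27, adjusted p = 0.141) was not called, and the kinase Fyn (0.53) and the tetraspanin Cd81 (0.49) rose. Fyn lost its call in 4 alternatives (adjusted p up to 0.119, without WT 16 h replicate 3, in limma) and Cd81 in 7 (up to 0.206, after quantile normalization).

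Coreceptors and inhibitory receptors fell in 16 of 17 tested members, with a median of -1.79. The complement receptor Cr2 (CD21) had 13.34, 13.57 and 13.43 at 0 h and 9.46, 9.17 and 9.46 at 16 h, 16.9-fold lower (SE 0.17 on the log2 scale, adjusted p = 8.4e-14). The sialic acid receptor Cd22 was 7.57-fold lower, and Siglecg (-3.42), Pecam1 (-3.41) and Ceacam1 (-3.33) fell too. Cd5, a negative regulator of receptor signalling, was the 1 member that rose (1.0, SE 0.33, adjusted p = 0.0186). It was not called without WT 0 h replicate 1, WT 0 h replicate 3 or WT 16 h replicate 2 (adjusted p up to 0.0817 in limma).

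In the NFAT and calcineurin list 3 of 16 tested genes rose (18.8%, against 20.9% of all genes) and 9 fell (56.2%, against 18.5%). Rcan1, a calcineurin inhibitor that NFAT itself induces, had 8.21, 8.28 and 8.43 at 0 h and 10.98, 11.37 and 10.74 at 16 h (2.72, SE 0.18, adjusted p = 3.16e-11). The calcium channel subunit Orai1 rose by 1.62 and the calcium-gated potassium channel Kcnn4 by 1.197. The calcineurin subunits Ppp3cc (-1.92) and Ppp3ca (-1.69), the channel Orai2 (-1.34), the calcium sensor Stim1 (-0.96) and Nfatc2 (-0.76) fell. Without the 4 WT arrays of male-type expression 5 members of this list fell instead of 9, and the adjusted p of Nfatc2 in limma was 0.329, the highest of the 4 alternatives in which its call was lost.

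Nfatc1, the gene deleted in the other genotype, was read by 5 probe sets that did not move alike. The brightest had 11.79, 11.96 and 12.01 at 0 h and 11.88, 11.65 and 12.08 at 16 h (-0.05, SE 0.13, adjusted p = 0.807), so the groups overlapped. Its WT mean was 1.30 above 0 h at 3 h. Of the 4 dimmer probe sets, 3 were higher at 16 h, with differences of 1.13 (adjusted p = 2.15e-07), 0.95 (adjusted p = 0.000169) and 0.56 (adjusted p = 0.00736). The difference of the last was 1.04 (adjusted p = 0.0666). Which Nfatc1 transcripts each probe set reads was not tested.

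Surface markers of activation went both ways, with 7 of 17 tested genes higher and 7 lower. The transferrin receptor Tfrc had 10.96, 10.94 and 11.60 at 0 h and 13.13, 13.18 and 13.46 at 16 h (4.28-fold higher), and the hyaluronan receptor Cd44 was 3.31-fold higher. Havcr1 (TIM-1) rose by 2.76, Cd9 by 2.19 and the costimulator Cd86 by 0.92 (SE 0.22, adjusted p = 0.00148). Tnfrsf9 (4-1BB) rose by at least 2.17. The early marker Cd69 was lower at 16 h, with 13.38, 13.66 and 12.98 against 10.68, 10.36 and 10.82 (6.59-fold). Cd274, which encodes PD-L1, fell by 3.23 and the costimulatory receptor Cd40 by 1.35. Cd83 had 13.54, 13.53 and 13.88 against 14.15, 13.997 and 13.88 and was not called (0.36, adjusted p = 0.136).

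Of 18 tested genes of the NF-kB system 5 rose (27.8%, against 20.9% of all genes) and 6 fell (33.3%, against 18.5%). Rel, the subunit most tied to B cell division, rose by 1.41, and the inhibitors Nfkbie (1.51) and Nfkbid (1.01) rose with it, Nfkbid at an adjusted p of 0.0503 in limma without WT 0 h replicate 3. Bcl3 (-1.85), the ubiquitin ligase Birc3 (-1.67) and the kinase Map3k14 (-1.29) fell, while Nfkbia (0.19) and Tnfaip3 (-0.13) were not called.

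The genes that make ribosomes were higher without exception among those tested. Of 54 listed genes of ribosome biogenesis 52 were tested and 52 rose, 48 of them by at least 2-fold, with a median of 1.54 and a range of 0.705 to 2.73. Polr1b, a subunit of RNA polymerase I, had 8.57, 8.19 and 8.76 at 0 h and 11.26, 11.07 and 11.38 at 16 h (6.64-fold, SE 0.17 on the log2 scale, adjusted p = 6.77e-12). Nhp2, which guides pseudouridylation of ribosomal RNA, was 5.80-fold higher. Npm1, a nucleolar chaperone, was already bright and went from 14.09, 14.19 and 14.09 to 15.42, 15.24 and 15.09 (2.18-fold). The mean level of the list was 10.32 to 10.34 on the 0 h arrays and 11.91 to 12 on the 16 h arrays.

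Of the cytosolic ribosomal proteins themselves 5 of 41 tested genes rose (12.2%, against 20.9% of all genes) and 1 fell (2.44%, against 18.5%), with a median of 0.213. Only 41 of the 76 listed were tested, and most were near the top of the scale at both times (mean level 14.13 to 14.19 at 0 h), where signals can compress. Without the 4 arrays of male-type expression 2 members rose, and with arrays centred on their medians 12 did. By contrast 69 of 75 mitochondrial ribosomal proteins rose, with a median of 1.08. Mrpl12 had 10.46, 10.36 and 10.69 at 0 h and 12.50, 12.64 and 12.86 at 16 h (4.48-fold).

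Other parts of the translation machinery were mostly higher. Of 36 tested initiation factors 28 rose and 8 were not called (median 1.09), among them Eif1ax (2.06), the guanine exchange subunit Eif2b3 (2.02) and the cap-binding protein Eif4e (1.44). Cytosolic aminoacyl-tRNA synthetases rose in 18 of 19 genes (median 1.15), led by Aars (1.62). Vars was the 1 not called (-0.34). All 8 subunits of TRiC, the chaperonin that folds actin and tubulin, rose by 1.00 to 1.61. Among 15 other chaperones 10 rose, led by the mitochondrial Hspa9 (1.96) and Hspd1 (1.88), and the 2 that fell were Hspa1a and Hspa1b.

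Of 45 tested proteasome genes 41 rose and 3 fell, with a median of 1.28. The core subunit Psma5 had 12.14, 12.25 and 12.16 at 0 h and 14.18, 14.11 and 13.96 at 16 h (3.73-fold higher). The 3 that fell are the catalytic subunits of the immunoproteasome, which interferon induces: Psmb10 (2.92-fold lower), Psmb9 (2.82-fold lower) and Psmb8 (1.52-fold lower, adjusted p = 0.00479). Their 16 h values lay under every 0 h value, and Psmb8 was not called with arrays centred on their medians (adjusted p = 0.106 in limma).

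Metabolic genes rose in most lists. In glycolysis and the pentose phosphate pathway 15 of 24 tested genes rose and 2 fell. Ldha, lactate dehydrogenase A, had 11.99, 11.77 and 12.01 at 0 h and 13.91, 13.92 and 13.96 at 16 h (4.03-fold, SE 0.11 on the log2 scale, adjusted p = 1.66e-12). The lactate exporter Slc16a1 was 6.24-fold higher, hexokinase Hk2 4.17-fold and the muscle-type enolase Eno3 7.56-fold. The glucose transporter Slc2a3 fell, with 10.99, 10.96 and 10.77 against 9.34, 9.18 and 9.04 (3.30-fold lower), and Slc2a1 was not called (-0.25, adjusted p = 0.434).

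Of 68 tested genes of the respiratory chain and ATP synthase 59 rose and 2 fell, with a median of 0.862. Ndufb6, an accessory subunit of complex I, was 3.93-fold higher. Serine and one-carbon metabolism rose in 9 of 10 genes (median 1.47), with Mthfd2 at 8.80, 8.71 and 8.61 against 10.69, 10.98 and 10.89 (4.42-fold). Purine and pyrimidine synthesis rose in 16 of 17 (median 1.31). Ctps, which makes CTP, had 9.49, 9.18 and 9.88 against 11.74, 11.51 and 11.71 (4.41-fold). Prps2 fell by 0.44, a call lost in 3 alternatives (adjusted p up to 0.188 in limma, with arrays centred on their medians).

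Among amino acid transporters and Bcat1 8 of 13 genes rose and 2 fell. Slc7a5, the large neutral amino acid transporter, had 7.26, 7.13 and 7.14 at 0 h and 9.60, 9.82 and 10.12 at 16 h (6.37-fold). In the polyamine list 5 of 9 rose. Spermidine synthase Srm was 6.35-fold higher and ornithine decarboxylase Odc1 2.91-fold higher.

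Cholesterol and fatty acid synthesis rose in 20 of 29 tested genes and fell in 1. Idi1, an isomerase of the isoprenoid pathway, had 9.12, 9.55 and 9.50 at 0 h and 12.09, 12.38 and 12.64 at 16 h (7.88-fold). Cyp51 (2.73) and Sqle (2.44) of the sterol branch rose, as did Fasn (1.77) and the regulator Srebf2 (1.17). The desaturase Scd1 fell by 1.30, and the fatty acid regulator Srebf1 was not called (-0.07).

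In the MYC network, a regulator of growth genes, 0 of 11 tested members rose in limma (0 at an unadjusted p under 0.05). Myc had 11.60, 11.58 and 11.90 at 0 h and 12.15, 12.02 and 12.70 at 16 h. The groups did not overlap, but the difference was not called (0.59, SE 0.30, adjusted p = 0.125, and 0.049 in limma with the replicate number as a block). Of the 11, 6 fell and 5 were not called, among those that fell the antagonists Mxd4 (-1.49), Mxd1 (-1.34), Mxi1 (-1.05) and Mnt (-0.65). Mnt was not called without WT 16 h replicate 2 (adjusted p = 0.0745 in limma).

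Factors that hold lymphocytes at rest fell in 20 of 23 tested genes, with a median of -1.74. Klf2, which keeps T and B cells quiescent and recirculating, had 13.79, 14.05 and 13.78 at 0 h and 9.28, 9.47 and 9.30 at 16 h (23.0-fold lower, SE 0.25 on the log2 scale, adjusted p = 1.58e-12). Txnip, which restrains glucose uptake, was 8.33-fold lower and the transcription factor Foxo1 4.70-fold lower. Pik3ip1, an inhibitor of PI3 kinase, fell by 4.72. The member that rose was Slfn2 (0.78), a call lost in 4 alternatives (adjusted p up to 0.0817 in limma, after quantile normalization).

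Of the genes for the G1 phase 7 of 21 rose (33.3%, against 20.9% of all genes) and 5 fell (23.8%, against 18.5%). Ccnd2, the D cyclin B cells induce after receptor signals, had 11.60, 11.81 and 11.37 at 0 h and 13.76, 14.03 and 13.68 at 16 h (4.69-fold). Its partner Cdk4 was 4.12-fold higher, and the E cyclins Ccne2 (1.23) and Ccne1 (1.148) rose, the latter with an adjusted p of 0.0578 in limma without the 4 arrays of male-type expression. The inhibitors Cdkn2d (6.11-fold lower) and Cdkn1b (3.32-fold lower), the pocket protein Rbl2 (-1.35) and E2f2 (-2.17) fell.

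DNA replication genes rose in 37 of 45 tested genes, and 8 were not called. The median was 1.22. Gins2, part of the replicative helicase, had 7.54, 7.20 and 7.38 at 0 h and 9.40, 9.90 and 9.56 at 16 h (4.76-fold, SE 0.24 on the log2 scale). Mcm3 of the same helicase was 3.81-fold higher and Pcna, the sliding clamp, 2.25-fold higher. Of 27 tested mitosis genes 4 rose (14.8%) and 3 fell (11.1%), against 20.9% and 18.5% of all genes. Their median of -0.00663 turned to 0.0826 with arrays centred on their medians and to 0.177 after quantile normalization. Ccnb2 fell by 1.0 and Cenpa by 0.93, Cdk1 (0.84) and Bub1b (0.91) rose, and Top2a and Mki67 overlapped between the groups. Replicate 2, the array of male-type expression, had the highest mean level of the DNA replication list at 16 h (11.06 against 10.62 and 10.68) and of the mitosis list (8.69 against 8.14 and 8.18). Without the 4 WT arrays of male-type expression 5 mitosis genes fell and the rest were not called, Cdk1 and Bub1b among them (adjusted p = 0.113 and adjusted p = 0.108 in limma).

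**Figure D2:**
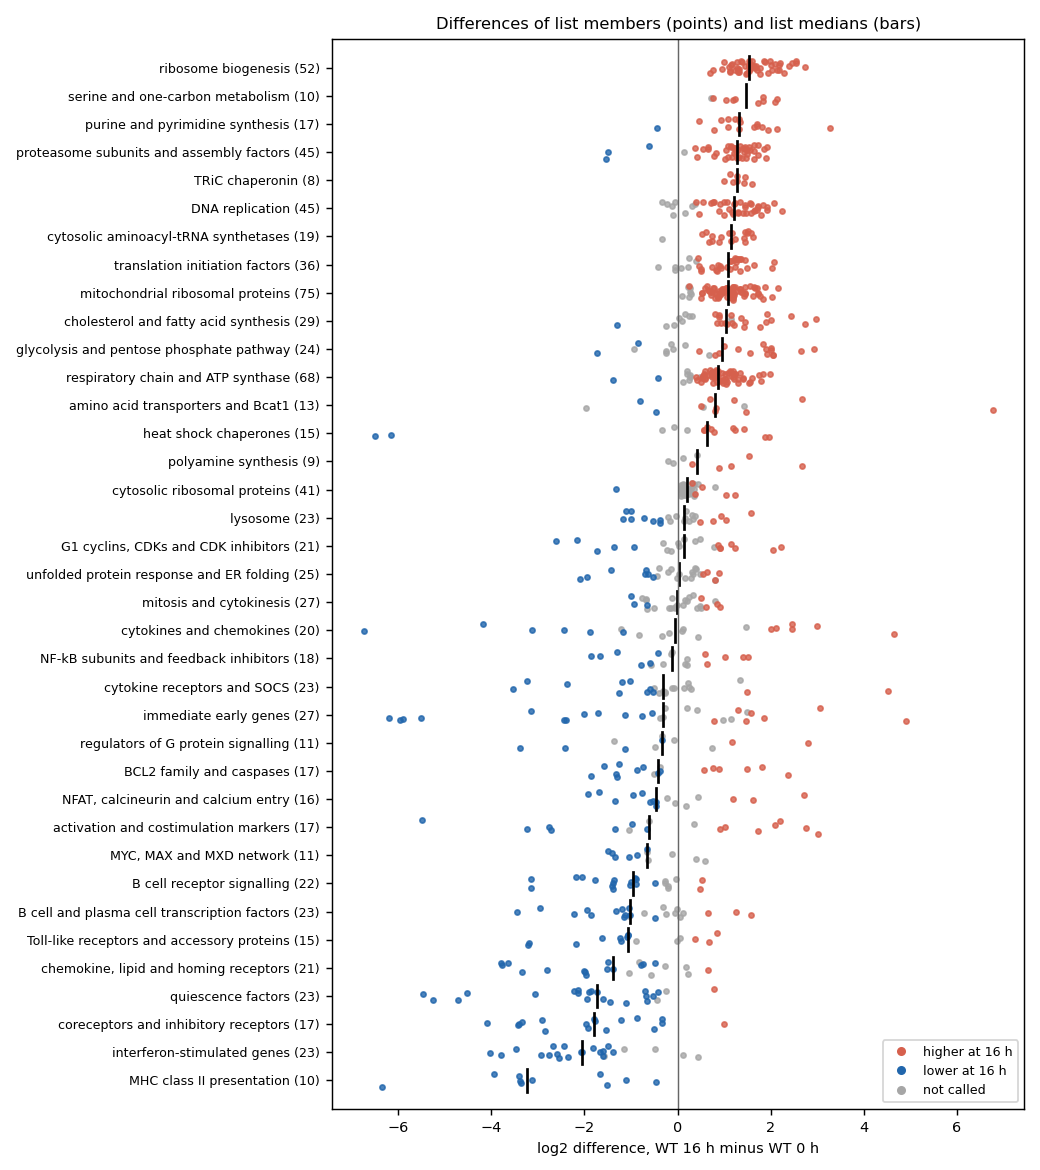
Log2 difference between WT 16 h and WT 0 h for every tested member of 37 gene lists (points; red higher, blue lower, grey not called) with the list median (black bar) and the number of tested genes in brackets. Ribosome biogenesis, at the top, has a median of 1.54 and MHC class II presentation, at the bottom, one of -3.24.

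Sequences near the start sites of these groups were read from RefSeq promoters (GRCm38.p6), which cover 250 bases before to 50 after the start. Of the 14318 genes 11530 matched by symbol, with 14642 promoters. The motifs CACGTG, TTTGGCGC, TTTCCCGC, GCATGCGC, TGACGTCA and CCAAT were searched on both strands, and matches were counted for each motif whether or not they overlapped another. The E-box CACGTG, a sequence that MYC and MAX can bind, lay in 9.27% of all promoters. It lay in 14.3% of the promoters of genes at least 2-fold higher and in 7.89% of those at least 2-fold lower. Over the 37 lists the share ran from 0% to 33.3%, and lists that rose stood at both ends. In ribosome biogenesis 10 of 49 promoters held it, in purine and pyrimidine synthesis 4 of 19, in initiation factors 10 of 35 and in the aminoacyl-tRNA synthetases 4 of 12, but in mitochondrial ribosomal proteins 6 of 72, in serine and one-carbon metabolism 0 of 10 and in TRiC 0 of 9. Other lists, in which fewer genes rose than fell, lay in the same range, with 4 of 12 in the MYC network, 7 of 24 in the lysosome list and 4 of 16 in the NFAT and calcineurin list. Windows of 60 bases are shown for members of ribosome biogenesis or of purine and pyrimidine synthesis that hold the motif before the start. Those with the largest differences were taken, from promoters that did not cover every chromosome. CACGTG is in capitals, 5′ to 3′ on the strand of the gene. The genes are Nme1 (chr11:93968026-93968085, minus strand), Nop2 (chr6:125131796-125131855, plus strand) and Utp18 (chr11:93885767-93885826, minus strand).
Nme1: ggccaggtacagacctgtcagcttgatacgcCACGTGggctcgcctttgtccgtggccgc
Nop2: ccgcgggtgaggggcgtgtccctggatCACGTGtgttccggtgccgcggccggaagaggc
Utp18: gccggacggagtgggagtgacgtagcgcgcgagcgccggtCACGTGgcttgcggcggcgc

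These E-boxes began 29, 60 and 20 bases before the start. Nop2, an RNA methyltransferase of the large ribosomal subunit, went from 9.37, 9.53 and 9.12 to 11.08, 11.08 and 11.001. Utp18, of the small subunit processome, went from 9.83, 9.55 and 10.16 to 10.88, 11.20 and 11.41.

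The E2F-type motifs TTTGGCGC and TTTCCCGC lay in 0.874% and 1.78% of all promoters, and either of them in 2.62%. In DNA replication 11 of 44 promoters (25%) held either. The windows of Mcm6 (chr1:128359782-128359841, minus strand), Mcm5 (chr8:75109334-75109393, plus strand) and Cdc6 (chr11:98907987-98908046, plus strand) are shown by the same rule, with the motif or its reverse complement in capitals.
Mcm6: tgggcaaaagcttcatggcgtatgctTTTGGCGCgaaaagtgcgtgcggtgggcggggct
Mcm5: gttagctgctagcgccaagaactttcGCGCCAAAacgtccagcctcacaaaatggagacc
Cdc6: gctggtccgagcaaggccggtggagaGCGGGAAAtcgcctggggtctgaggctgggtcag

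Mcm6 went from 11.39, 11.50 and 10.43 to 13.04, 13.42 and 12.34, and Mcm5 from 12.22, 11.96 and 11.66 to 13.65, 13.96 and 13.42. The pentamer CCAAT lay in 37.2% of all promoters, in 19 of 22 of the unfolded protein response, in 8 of 10 of MHC class II presentation, in 19 of 24 of mitosis, in 20 of 27 of cholesterol and fatty acid synthesis and in 7 of 10 of serine and one-carbon metabolism. These lists had medians on both sides of 0. A reversed CCAAT is shown in capitals for H2-DMa (chr17:34125293-34125352, plus strand) and H2-Ob (chr17:34238821-34238880, plus strand), the class II genes of the list with the largest decreases that hold it before the start.
H2-DMa: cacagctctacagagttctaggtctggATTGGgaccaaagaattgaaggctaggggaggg
H2-Ob: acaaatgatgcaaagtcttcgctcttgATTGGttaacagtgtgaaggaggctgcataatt

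These began 198 and 57 bases before the start. A match of letters is a description and does not show that a factor binds there. The motif GCATGCGC lay in 4.56% of all promoters and in 9 of 62 of the respiratory chain, and TGACGTCA in 2.73% of all.

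All 10 tested genes of MHC class II presentation fell, 9 of them by at least 2-fold, with a median of -3.24. H2-DMa, a chain of the editor that loads peptides, had 13.02, 13.04 and 13.10 at 0 h and 9.26, 9.07 and 9.04 at 16 h (15.2-fold lower, SE 0.16 on the log2 scale, adjusted p = 8.4e-14). H2-Ob, part of the inhibitor of that editor, was 10.6-fold lower. Ciita, the master regulator of class II transcription, had 10.82, 10.83 and 11.01 against 8.40, 7.12 and 7.77 (8.73-fold lower). Of the peptide-binding chains H2-Ab1 was 3.16-fold lower, and H2-Aa had 15.41, 15.51 and 15.29 against 14.52, 14.44 and 13.94 (2.15-fold lower). Whether signals as bright as those of H2-Aa compress was not tested. The invariant chain Cd74 fell by 0.47 (adjusted p = 0.0124), but was not called without WT 16 h replicate 3 or without the arrays of male-type expression (adjusted p up to 0.0967 in limma).

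B lineage transcription factors fell in 12 of 23 tested genes and rose in 3, with a median of -1.03. Bcl6, the factor of germinal centre B cells, had 11.57, 11.60 and 11.31 at 0 h and 8.28, 7.59 and 8.26 at 16 h (10.9-fold lower). Ets1 fell by 2.96, Ebf1 was 3.64-fold lower and Pax5 2.18-fold lower. Irf4 rose (0.65, SE 0.24, adjusted p = 0.0326), as did Tcf4 (3.00-fold) and Id3 (1.26). The plasma cell factors Prdm1 (0.12) and Xbp1 (under 0.01 in size) were not called, and Jchain (-2.22) and Sdc1 (-1.31) fell. The call of Irf4 was lost in 8 alternatives (adjusted p up to 0.191 in limma, after quantile normalization), 5 of them without 1 array, and that of Sdc1 without the arrays of male-type expression (0.0535).

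Receptors for homing and position fell in 14 of 21 tested genes and rose in 1. S1pr1, the receptor that lets lymphocytes leave tissue, had 11.77, 11.62 and 11.998 at 0 h and 8.197, 8.11 and 7.69 at 16 h (13.9-fold lower). Cxcr4 had 12.98, 12.61 and 13.60 against 9.09, 8.94 and 9.88 (13.5-fold lower), with replicate 3 highest at both times. Cxcr5, which leads B cells into follicles, was 3.90-fold lower and Ccr7 2.63-fold lower. Gpr183, which guides activated B cells to the follicle edge, fell by 0.74, and Ccr6 was not called (0.18). Itgb1 was the member that rose (0.66). Gpr183 was not called in 3 alternatives (adjusted p up to 0.127 in limma, without WT 0 h replicate 3) and Itgb1 in 5 (up to 0.113, without the arrays of male-type expression).

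The 20 tested cytokines and chemokines split into 6 that rose and 6 that fell (30.0% each, against 20.9% and 18.5% of all genes). Csf1, the growth factor of macrophages, had 7.30, 7.89 and 7.47 at 0 h and 10.16, 10.60 and 10.86 at 16 h (7.91-fold higher). Ccl4 was 5.45-fold and Ccl3 4.34-fold higher, both with replicate 3 highest at 16 h. Tnfsf14 (LIGHT) rose by at least 2.21. Ifng, which encodes interferon gamma, had 6.89, 6.53 and 6.998 against 8.63, 8.98 and 8.83 (4.02-fold higher, adjusted p = 0.00529, and 0.0761 in limma without the arrays of male-type expression). Il10 (-0.19) and Tnf (0.12) were not called. Il16 (-3.13) and Il12a (-2.44) fell.

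Cytokine receptors and SOCS proteins fell in 9 of 23 genes (39.1%, against 18.5% of all genes) and rose in 2 (8.7%, against 20.9%), Il2ra and Cish (1.49). Il4ra had 10.83, 10.84 and 10.86 at 0 h and 8.51, 8.37 and 8.51 at 16 h (5.21-fold lower), and Socs3 was 11.6-fold lower. Of 15 Toll-like receptors and accessory proteins 9 fell and 3 rose. Tlr1 was 9.12-fold lower and Tlr7 fell by 1.08, while Tlr9 (0.06) was not called and the adaptor Myd88 rose by 0.68.

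Interferon-stimulated genes fell in 18 of 23 tested members and 5 were not called. The median was -2.05. Mx1, an antiviral GTPase, had 9.09, 9.56 and 9.67 at 0 h and 7.15, 6.00 and 6.91 at 16 h (6.74-fold lower, SE 0.66 on the log2 scale, adjusted p = 0.00139). Irf7, which amplifies interferon production, had 9.22, 8.98 and 9.31 against 6.97, 4.58 and 7.16 (7.61-fold lower). Ifitm2, an antiviral membrane protein on no list, stood against them with a 10.3-fold increase.

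In the BCL2 family 6 of 17 tested genes rose and 9 fell. The survival factor Bcl2l1 (BCL-XL) had 8.24, 8.45 and 8.13 at 0 h and 10.68, 10.48 and 10.76 at 16 h (5.16-fold higher), whereas Bcl2 had 11.16, 10.89 and 11.55 against 9.43, 9.11 and 9.52 (3.60-fold lower). The killer proteins Bcl2l11 (BIM; 3.50-fold) and Bbc3 (PUMA; 1.496 on the log2 scale) rose, and Pmaip1 (NOXA) fell by 1.57. Mcl1 fell by 0.41 (adjusted p up to 0.0991 in 2 alternatives of the limma fit), and the caspases Casp6, Casp8 and Casp9 fell by 1.31, 1.30 and 1.26.

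Markers of other cell types ranged from dim to bright, and some fell. The defining T cell markers Cd3e, Cd3d and Cd3g had group means under the filter level at both times, and 0 of 9 tested T cell markers were called in limma (0 at an unadjusted p under 0.05). Of 8 NK cell markers 4 fell. Their mean level was 6.39 to 7.25 on the 0 h arrays and 4.86 to 5.40 on the 16 h arrays, and Klrd1 went from 7.93, 8.34 and 8.61 to 5.26, 5.40 and 4.01. Of 8 neutrophil markers 3 fell (37.5%, against 18.5% of all genes). Their mean level was 7.53 to 8.39 against 6.13 to 6.99, and Mpo had 9.199, 10.11 and 9.17 against 6.90, 6.93 and 7.24. Of 11 macrophage markers 2 fell and 2 rose (18.2% each, against 18.5% and 20.9% of all genes). Their mean level was 7.46 to 8.01 against 6.71 to 7.42. Lyz2 had 11.68, 13.16 and 12.96 against 10.08, 11.29 and 11.48. Mpo was not called without the arrays of male-type expression (adjusted p = 0.0842 in limma), and Lyz2 and Ccl5 lost their calls in 8 and 11 alternatives (adjusted p up to 0.21 and 0.231). The share of these cells in the decreases of Ccl5, Tlr2, Tlr4, Il10ra and Socs3 was not tested.

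All 9 tested B cell markers fell too, by 0.44 to 4.56 (median -1.77), but stayed bright: Cd79a had 11.12, 12.18 and 10.84 at 16 h, and Ms4a1 (CD20) averaged 14.05. The 6 follicular markers fell (median -2.68), with Fcer2a (CD23) 10.5-fold and Cd55 14.7-fold lower. Of 10 marginal zone markers 5 fell and 1, Cd9, rose.

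The WT arrays at 8 h show which differences came late. Between 8 h and 16 h 1110 genes were called (7.75%), 549 higher (3.83%) and 561 lower (3.92%). This comparison shares the 16 h arrays with the main one. It was less firm: 624 genes were called without WT replicate 2 at 16 h, 447 without the 4 WT arrays of male-type expression, and 478 with arrays centred on their medians. With the replicate number as a block 2118 genes were called. The calls of single genes between 8 h and 16 h were not followed through the alternatives.

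DNA replication moved in these hours, with 38 of 45 genes higher at 16 h than at 8 h (25 with arrays centred on their medians). The list median, relative to 0 h, went from -0.438 at 3 h through -0.0812 at 8 h to 1.22 at 16 h. Cdc6, which loads the helicase at origins, had 6.31, 5.66 and 5.67 at 8 h and 8.91, 10.08 and 8.98 at 16 h (3.44, SE 0.40, adjusted p = 6.29e-06). Its 8 h values lay under those of 0 h, which were 8.01, 7.80 and 7.42. The call of Cdc6 between 16 h and 0 h was lost without the arrays of male-type expression (adjusted p = 0.0695 in limma). Dscc1, which helps load the sliding clamp, was 2.92 higher at 16 h than at 8 h, and Kntc1, a kinetochore protein, 2.61. Ccnd2 was 1.70 higher and Eno3 2.30 higher. Pdcd1 went from 7.69, 7.07 and 7.44 to 9.96, 10.60 and 10.33 in this interval (2.89, SE 0.70, adjusted p = 0.0102). Wnt1, a secreted signalling protein, had 6.36, 5.10 and 5.75 at 8 h and 8.48, 8.89 and 8.67 at 16 h (adjusted p = 0.0496).

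In contrast, the median of ribosome biogenesis went from 1.77 at 3 h through 1.59 at 8 h to 1.54 at 16 h. Between 8 and 16 h 2 of its 52 genes were called higher and 0 lower, against 3.83% and 3.92% of all genes. Cholesterol and fatty acid synthesis had its highest median at 8 h (1.23, against 0.555 at 3 h and 1.05 at 16 h), and 13 of 29 genes were lower at 16 h than at 8 h. That count was 8 without WT replicate 2 at 16 h and 6 without all WT arrays of male-type expression. In the respiratory chain 28 of 68 genes were higher at 16 h than at 8 h, but 9 without WT replicate 2 at 16 h, 1 without the WT arrays of male-type expression and 0 with arrays centred on their medians.

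**Figure D3:**
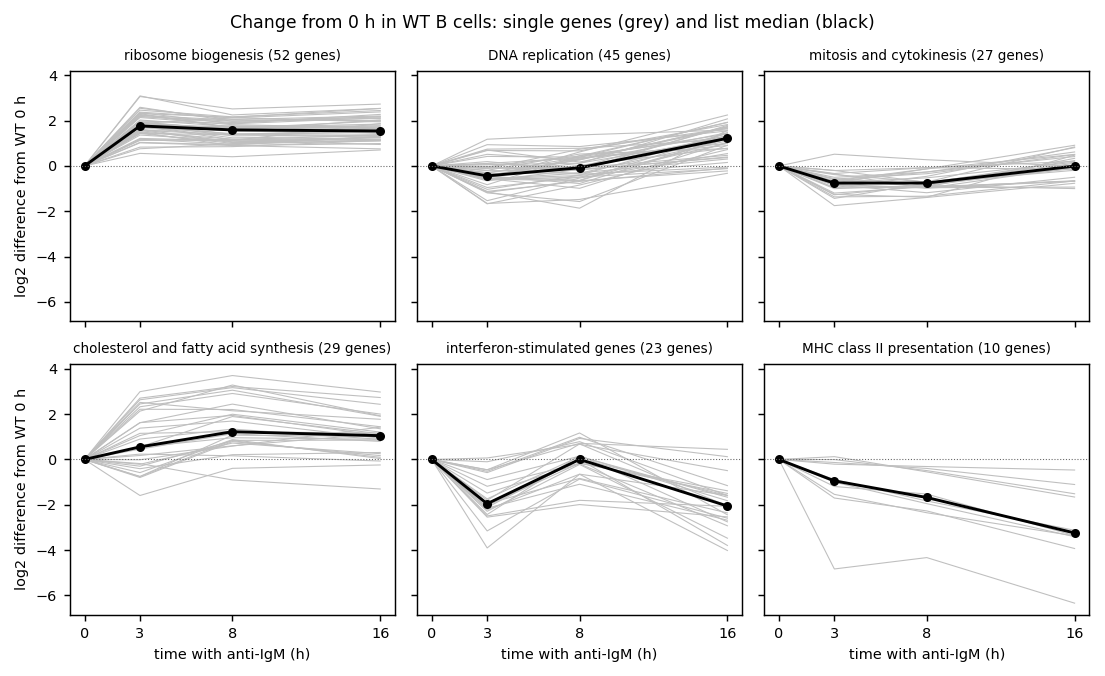
Log2 difference from the WT 0 h mean at 3, 8 and 16 h with anti-IgM for the tested members of 6 lists (grey lines) and their median (black). Ribosome biogenesis is near its 16 h level at 3 h, DNA replication is higher at 16 h than at 8 h, and interferon-stimulated genes are near 0 at 8 h and at -2.05 at 16 h.

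Interferon-stimulated genes were low at 3 h, near their 0 h level at 8 h and low again at 16 h. Their median relative to 0 h went from -1.95 at 3 h through 0.00407 at 8 h to -2.05 at 16 h, and 16 of 23 were lower at 16 h than at 8 h. Rsad2 (viperin) had 9.84, 7.88 and 8.44 at 3 h, 11.15, 9.17 and 10.71 at 8 h and 6.58, 6.51 and 7.10 at 16 h (-3.61 between 8 h and 16 h, SE 0.53, adjusted p = 0.0001). Rtp4, a chaperone of membrane receptors that interferon induces, had 11.99, 9.09 and 11.26 at 8 h and 6.57, 6.27 and 7.92 at 16 h. Ifit3 fell by 3.11 or more in the same interval. Replicate 2 was the lowest at 8 h for all 3 genes. The class II list moved from -0.944 at 3 h through -1.68 at 8 h to -3.24 at 16 h in its median, and 9 of its 10 genes were lower at 16 h than at 8 h.

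Other genes were high at 3 and 8 h and near their 0 h level at 16 h. Ccr9, a chemokine receptor of gut homing, had 3.94, 5.40 and 6.29 at 0 h, 10.06, 10.48 and 10.05 at 3 h, 9.43, 9.78 and 9.31 at 8 h and 5.76, 6.14 and 6.75 at 16 h. Gng4, a G protein gamma subunit, had 11.27, 12.15 and 9.95 at 3 h and 6.41, 6.86 and 5.35 at 16 h, against 5.45, 4.95 and 5.22 at 0 h. Neither was called between 16 h and 0 h (adjusted p = 0.0914 and adjusted p = 0.173). The probe set of Ccr9 is of the x type and can bind related transcripts.

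**Figure D4:**
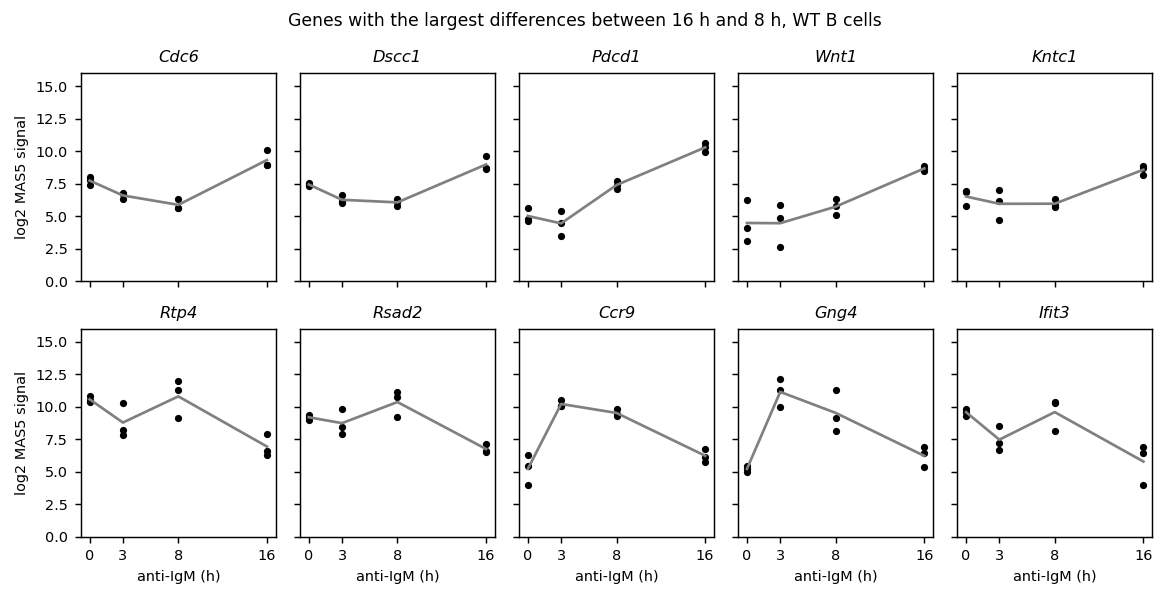
Log2 MAS5 signal on each WT array (points) and group mean (grey line) against time with anti-IgM for the 5 genes with the largest increases and the 5 with the largest decreases between 8 h and 16 h. Cdc6 is lower at 3 and 8 h than at 0 h and highest at 16 h, and Ccr9 and Gng4 are back near their 0 h level at 16 h.

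The same comparison in KO cells asks which of these differences depend on NFATc1. Between KO 16 h and KO 0 h 5138 genes were called (35.9%), 2784 higher (19.4%) and 2354 lower (16.4%). The 2 comparisons share no array. Of the 2992 genes higher in WT cells 2952 had a positive difference in KO cells and 2425 were called higher there (81.0%). Of the 2643 lower genes 2607 had a negative difference and 2069 were called lower (78.3%). Over all 14318 genes 81.0% had the same sign. The median difference of genes at least 2-fold higher in WT cells was 1.42 in WT and 1.22 in KO cells, and of those at least 2-fold lower it was -1.65 and -1.37. These genes were chosen on the WT values, which alone makes the WT medians larger.

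The difference between the genotypes in the change from 0 h to 16 h was called for 3 of 14318 genes (0.021%). An unadjusted p under 0.05 in limma was found for 624 genes, less than the share of 0.05 expected where no gene differs. With the replicate number as a block 37 genes were called. Rcan1 rose by 2.72 in WT and 0.92 in KO cells, whose values were 8.44, 8.47 and 8.33 at 0 h and 9.10, 9.57 and 9.32 at 16 h (KO minus WT change -1.81, SE 0.26, adjusted p = 0.00316). P2ry10, a G protein-coupled receptor for lysophospholipids, had 12.97, 12.84 and 12.99 at 0 h and 11.03, 10.84 and 10.96 at 16 h in WT cells. In KO cells it had 12.55, 12.78 and 13.12 against 12.09, 12.31 and 12.21 (1.37, SE 0.19, adjusted p = 0.00316). Rgs2, a brake on G protein signalling, fell in WT cells from 13.79, 13.91 and 13.84 to 12.48, 12.43 and 13.24. In KO cells it had 13.19, 14.07 and 13.93 against 14.06, 14.31 and 14.10 (1.56, SE 0.28, adjusted p = 0.0491). The call of Rgs2 passed in 7 of 22 alternatives (adjusted p up to 0.35 in limma, without the 4 WT arrays of male-type expression). P2ry10 passed in 21 of the 22 (up to 0.31, with arrays centred on their medians) and Rcan1 in 20 (up to 0.0717, without the arrays of male-type expression).

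The next 3 genes did not pass. The difference in change was -2.89 for Actn1, an actin crosslinker that rose 7.46-fold in WT cells (6.37, 7.37 and 6.40 against 9.62, 10.28 and 8.94) and had 6.39, 6.36 and 6.43 against 6.36, 6.89 and 5.95 in KO cells (adjusted p = 0.0947). For Cr2 it was 1.23 (adjusted p = 0.0947) and for Ephx1, an epoxide hydrolase, 1.36 (adjusted p = 0.0897). Bcat1 had a difference in change of -2.83 (adjusted p = 0.0947).

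**Figure D5:**
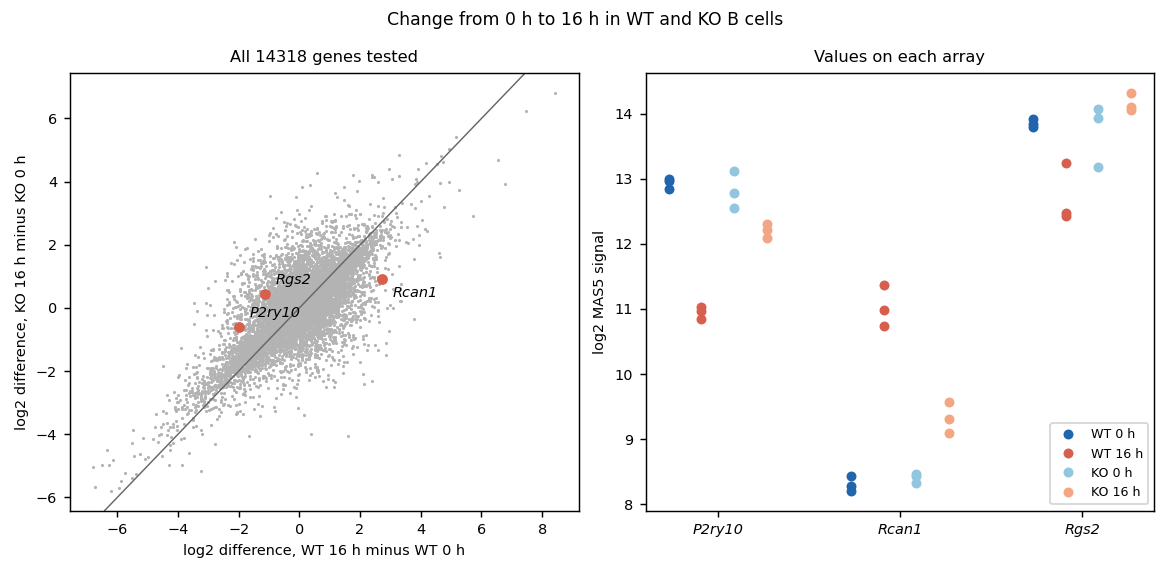
Left, log2 difference between 16 h and 0 h in KO cells against that in WT cells for every tested gene (grey), with the line of equal change and the 3 genes called for a difference between the genotypes (red). Right, the log2 MAS5 signal of these genes on each array at 0 h and 16 h; for Rcan1 the KO values at 16 h (9.10 to 9.57) lie under the WT values (10.74 to 11.37).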

How the data were processed

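The deposited values are log2 signals per probe set, made by the authors with MAS5 per the submitters' processing notes, whose version is not given there. Before the log, the mean of each array without its 2% highest and lowest signals was 500, and 0.537% of the log2 values are 0. From these, 14318 genes were tested: probe sets above the 40th percentile of their array on at least 3 arrays, 1 symbol each, and per gene the probe set with the highest mean. Symbols came from GEO's platform annotation, updated through Entrez identifiers (34741 of 34945 probe sets matched). The limma fit (version 3.58.1, R 4.3.3) estimated a mean for each of the 8 groups from the 24 arrays, which left 16 residual degrees of freedom, and used a variance trend. A nominal p-value was adjusted by Benjamini-Hochberg. P-values rest on the spread within groups, pooled over the 8 groups and drawn by limma towards that of other genes. Each group has 3 samples, which the series' design text calls biological replicates. Simulated 2-fold changes in this comparison were recovered for 40.3% of 67 genes, 4-fold changes for 75.8% of 66 and 1.5-fold changes for 25.4% of 67, with 7 false calls. Only these genes were changed in the simulation, a far smaller share than the 39.4% called in the data. The adjustment is stricter when fewer genes change, so these recoveries do not give the share of real changes that was missed.

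Genes were named by size among called genes with separate groups (the 15 highest and 15 lowest), by the smallest p for a genotype difference (6), by size between 8 h and 16 h (5 each way), as Nfatc1 probe sets, and as members of the lists. Bcat1 is also a list member. The gene lists and rules were chosen with earlier results of these data known, and lists were given no test. Of the 5635 called genes 3433 had several probe sets, and in 748 of them 1 or more had a difference of the opposite sign, in 111 with a call of its own.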

Additional observations from a re-analysis of the deposited data

Results flagged for a closer look

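The change from 0 h to 16 h differed between the genotypes for 3 genes in a test of the difference itself (limma, Benjamini-Hochberg adjustment over 14318 genes), the 3 given at the end of the report. For P2ry10 the KO change lay 1.37 above the WT change (SE 0.194, adjusted p = 0.00316), and over 22 alternatives the adjusted p ran from 0.000188 to 0.31, the highest with arrays centred on their medians. For Rcan1 it was -1.81 (SE 0.259, adjusted p = 0.00316; alternatives from 0.00128 to 0.0717, the highest without the 4 WT arrays of male-type expression). For Rgs2 it was 1.56 (SE 0.277, adjusted p = 0.0491; alternatives from 0.00202 to 0.35), and 7 of the 22 alternatives kept it past the threshold. All 3 KO values of each gene at 16 h lay on one side of the 3 WT values, which the choice of these genes by their genotype difference favours. The WT array of male-type expression was among the 3 in each WT group and no KO array was of that type, so sex and genotype are partly mixed in these differences.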

How the results depend on the processing

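Of 137 recomputed counts 115 lay within 1.5 times their value. With every probe set on its own, 9961 probe sets were called between WT 16 h and 0 h (4946 higher, 5015 lower, at least 2-fold 2318 and 2732), 8949 in KO cells and 1677 between WT 16 h and 8 h. A required minimum of 1.5-fold left 2447 genes (1271 higher, 1176 lower). Genes called in the other alternatives kept their sign. Leaving out 1 array in turn gave 5041 to 5222 called genes (2670 to 2817 higher, 2325 to 2454 lower), 1342 to 1394 and 1339 to 1380 of at least 2-fold, and 4501 to 4855 in KO cells. Between WT 16 h and 8 h it gave 624 (without WT 16 h replicate 2) to 997, arrays centred on their medians 478, only the compared groups 661, and the WT arrays without male-type expression 447, an alternative chosen after seeing the data. The genotype difference counted 5 genes after quantile normalization, 0 with centred arrays, 5 with only the compared groups, and 2 to 6 without 1 array (6 without WT 0 h replicate 2, 5 without KO 16 h or WT 16 h replicate 3). A replicate block gave 6369, 2118 between WT 16 h and 8 h, and 37 for the genotype difference. The labels do not say that a number marks a mouse, and the data check was divided. A pair was asked to reach 0.1 over all genes. Same-numbered WT arrays at 0 h and 16 h correlated in their deviations at 0.02, 0.0896 and 0.0655 over all genes. Same-numbered KO arrays correlated at 0.0755, 0.163 and 0.142. Over the genes brighter than the median gene the WT pairs correlated at 0.172, 0.401 and 0.377 and the KO pairs at 0.285, 0.34 and 0.571. Each array correlated best with its own number, and WT replicate 2 was of male type at every time. The unblocked fit was kept because it was planned and the rule over all genes was not met by each pair. If same-numbered arrays do share a mouse, this fit leaves their pairing out, and the counts with the block apply instead. With the block Myc (adjusted p = 0.049 in limma), Mki67 (0.0123), Hspa5 (0.015), Vars (0.0193) and Gng4 (0.0445) were called as well. Of 663 list medians 49 moved beyond their spread and 39 turned sign, 32 of them where the median lay within its spread of 0. Among the other 7, activation markers went to 0.36 and dendritic markers to 1.01 with a filter at the 60th percentile, dendritic markers to 0.474 with every probe set and 0.0319 with dim values raised, stromal markers to 0.0346 with dim values raised, G1 cyclins to -0.00675 without WT 0 h replicate 1 (up to 0.396 without 1 array), and platelet markers to 0.0541 without WT 16 h replicate 2 (-0.876 the lowest). Single-gene calls were lost 44 times with the 1.5-fold minimum and 90 times, over 26 genes, in other alternatives. Quantile normalization and centring moved the median of all genes from 0.0458 to 0.116 and 0.135. Dim signals limit the folds given as at least a value.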

Other observations

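Stress sensors of the endoplasmic reticulum and the folding enzymes they control did not move together. Of 25 genes 4 rose (16.0%) and 7 fell (28.0%), against 20.9% and 18.5% of all genes. Their median of 0.0343 turned to -0.0594 after quantile normalization. Without the 4 WT arrays of male-type expression 3 rose and 4 fell. Eif2ak3, the sensor kinase PERK, had 11.53, 11.27 and 11.54 at 0 h and 9.42, 9.33 and 9.79 at 16 h (-1.93, SE 0.17, adjusted p = 2.44e-09). Dnajb9, a cochaperone, fell by 2.09 and Ddit3, the stress factor CHOP, by 1.42. The lectin chaperone Canx rose by 0.89 and Hyou1 by 0.64 (adjusted p up to 0.128 in 3 alternatives of the limma fit), while Hspa5, the main chaperone of the compartment, was bright at both times and not called (0.31, adjusted p = 0.0833).

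In the lysosome list 5 of 23 genes rose (21.7%, against 20.9% of all genes) and 8 fell (34.8%, against 18.5%). The cysteine proteases Ctsh (-1.18) and Ctss (-1.0) fell, the second being the enzyme that trims the invariant chain of class II molecules, as did Psap (-1.10), a precursor of lipid activator proteins. Gusb, beta-glucuronidase, had 9.76, 9.89 and 9.86 at 0 h and 11.23, 11.53 and 11.45 at 16 h (1.57, SE 0.14, adjusted p = 3.35e-09). The related transcription factors Tfe3 (1.03) and Tfeb (-1.01), both drivers of lysosomal genes, moved in opposite directions. Of 11 regulators of G protein signalling 2 rose (18.2%, against 20.9% of all genes) and 4 fell (36.4%, against 18.5%). Rgs18 had 10.12, 9.95 and 9.74 against 6.90, 6.17 and 6.61 (-3.38), Rgs14 fell by 2.41, and Rgs16 rose by at least 2.32.

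Of 7 B1 cell markers 3 rose (42.9%, against 20.9% of all genes), Plscr1 (2.41), Zbtb32 (1.05) and Cd5. Slamf7 of the plasma cell list rose by 1.32 (adjusted p = 0.0497 in limma) with groups that overlap. The call of Zbtb32 was lost in 3 alternatives (adjusted p up to 0.072 in limma, without WT 0 h replicate 1) and that of Slamf7 in 9 (up to 0.23, without WT 16 h replicate 3). Of the dendritic cell, erythroid, platelet and stromal lists 1 of 7, 0 of 3, 0 of 6 and 0 of 5 genes were called higher in limma and 1, 1, 0 and 1 lower. At an unadjusted p under 0.05, 2, 0, 0 and 0 were higher and 2, 2, 2 and 2 lower.

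The probe sets with no gene name or several were tested apart from the genes. Of 6815 such probe sets 1778 were called in limma (26.1%), 537 higher and 1241 lower at 16 h, whereas among named genes the higher calls outnumbered the lower.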
